A study of Mus musculus with 56 samples.

Results

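The muscleblind family consists in the mouse of 3 genes, Mbnl1, Mbnl2 and Mbnl3. They were chosen by name, as 3 of the 23261 genes listed in the gene tables, together with all of their skipped exon and mutually exclusive exon events, 54 of 139716 distinct events. Mbnl1 had 23 skipped exon and 7 mutually exclusive events, Mbnl2 had 18 and 5, and Mbnl3 had 1 skipped exon event. Mice were either wild type (WT) or Fmr1 knockout (KO), and 3 RNA samples of each genotype came from every one of 6 tissues: testis, muscle, liver, cerebellum, cortex and hippocampus. The N2a line, derived from a mouse neuroblastoma, received a non-targeting small interfering RNA (siNT, 2 samples) or one against Fmr1 (siFmr1, 3 samples). In a later N2a experiment siRNA and plasmid were transfected together, 3 samples each, in 5 groups: the plasmid pcDNA as control after siNT, after siFmr1 or after siMbnl1, FLAG-nuclear MBNL1 (nMBNL1) after siFmr1, and FLAG-cytosolic MBNL1 (cMBNL1) after siMbnl1. The labels give no age or strain of the mice and do not name the muscle taken, whose columns carry the code GA without explanation. They also do not say whether samples of 1 group came from separate animals or cultures. The p-values thus measure the spread between these samples, which may be technical. All N2a groups are 1 cell line, and transfected cells were not separated from untransfected ones as far as the labels say.

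Muscleblind proteins are zinc finger RNA-binding proteins. In the nucleus they promote or repress the inclusion of alternative exons, and in the cytoplasm they bind mRNAs and take part in their localisation and stability. They are best known from myotonic dystrophy, where expanded repeat RNA sequesters them, and MBNL2 is the family member most studied in brain and MBNL1 in skeletal muscle. Their own transcripts are alternatively spliced, and the 54-nucleotide exon of Mbnl1 is known to promote nuclear localisation of the protein. Fmr1 encodes FMRP, an RNA-binding protein that regulates translation and is lost in fragile X syndrome. The study's title names splicing in FMRP deficiency and a cytoplasmic position of MBNL1, and the comparisons below ask how the muscleblind transcripts themselves behaved.

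In the annotation of the GRCm38 build (GENCODE M21), Mbnl1 lies on the plus strand of chromosome 3 from 60472830 to 60629750 with 25 transcripts. Mbnl2 lies on the plus strand of chromosome 14 from 120275669 to 120431697 with 10 transcripts, and Mbnl3 on the minus strand of the X chromosome from 51117269 to 51206532 with 7. Splicing results below turn on 5 short coding exons near the ends of Mbnl1 and Mbnl2. Both genes hold a 54-nucleotide exon, at chr3:60614683-60614736 in Mbnl1 and chr14:120395712-120395765 in Mbnl2, and a 95-nucleotide exon, at chr3:60622146-60622240 and chr14:120404638-120404732. Mbnl1 also holds a 36-nucleotide exon, at chr3:60621423-60621458, between the other two. The pairs are shown to let the paralogues be compared, with the bases that differ between them in capitals; the 36-nucleotide exon has no counterpart among the Mbnl2 events and is in lower case. All are on the plus strand, 5′ to 3′.
Mbnl1 54-nucleotide exon: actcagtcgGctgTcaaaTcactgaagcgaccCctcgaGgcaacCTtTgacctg
Mbnl2 54-nucleotide exon: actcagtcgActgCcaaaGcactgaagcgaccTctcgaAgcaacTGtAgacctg
Mbnl1 95-nucleotide exon: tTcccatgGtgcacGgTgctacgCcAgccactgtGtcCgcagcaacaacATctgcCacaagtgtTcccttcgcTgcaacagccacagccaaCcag
Mbnl2 95-nucleotide exon: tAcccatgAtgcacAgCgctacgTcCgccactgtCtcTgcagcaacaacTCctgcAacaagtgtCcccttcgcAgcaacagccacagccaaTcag
Mbnl1 36-nucleotide exon: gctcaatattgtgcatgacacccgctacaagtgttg
The 54-nucleotide exons share 46 of 54 bases (85.2%), and the 95-nucleotide exons share 81 of 95 (85.3%). Lengths of 54 and 36 are multiples of 3, so including or skipping those exons keeps the reading frame, while the 95-nucleotide exon shifts it.

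Brain libraries held 26264368 to 41384652 counts, and liver, muscle, testis and first N2a libraries 13230785 to 16268865. For the co-transfection experiment normalized counts were deposited, and its depth in genes is unknown. Junction reads summed over all events of its skipped exon tables were 35906127 to 57090318 per replicate. A read can count for more than 1 event, so these sums are not a sequencing depth. Summed TPM (transcript abundance, scaled by transcript length and library total) of Alb, Apoa1 and Cps1 were 64100 to 87100 in liver, those of Ckm, Acta1 and Myh4 81400 to 89600 in muscle, those of Prm1, Tnp1 and Ddx4 39800 to 44900 in testis, and those of Gabra6, Pcp2 and Cbln1 3810 to 4840 in cerebellum. The log2 fold change of Fmr1 in KO against WT was -1.61 for liver, -1.80 for cerebellum, -1.90 for hippocampus, -1.95 for testis and -1.97 for cortex (edgeR adjusted p from 9.82e-19 to 0.00313). In muscle the difference was -0.61 ± 0.17 (SE, adjusted p = 0.0734), so the targeted transcript did not pass the test there. In the first N2a experiment the difference was -2.25 with an adjusted p of 0.9999, and in the co-transfection experiment it was -2.37 (limma adjusted p = 1.06e-08).

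Mbnl1 transcripts were most abundant in muscle and Mbnl2 transcripts in brain, and both were lowest in testis. Over both genotypes, Mbnl1 averaged 143 ± 19.2 TPM (SD, n = 6) in muscle, 97.2 ± 9.98 in cerebellum, 82.4 ± 5.25 in cortex, 64.3 ± 3.68 in hippocampus, 31 ± 8.38 in liver and 8.9 ± 0.673 in testis. Its 6 values ranged from 112.16 to 162.26 in muscle and from 88.46 to 116.65 in cerebellum, so these neighbours overlapped. Cerebellum, cortex (73.06 to 88.08) and hippocampus (59.36 to 70.33) did not overlap with each other, and liver (23.32 to 47.24) and testis (7.85 to 9.76) lay apart from each other and from the rest. Mbnl2 averaged 220 ± 15.9 TPM in cortex, 205 ± 10.6 in cerebellum and 195 ± 11 in hippocampus, ranges that overlapped. It then averaged 102 ± 15 TPM in muscle (86.82 to 121.41), 18.7 ± 5.05 in liver (11.5 to 22.81) and 9.02 ± 0.701 in testis (8.4 to 10.3). These 3 tissues did not overlap with brain or with each other for Mbnl2. TPM was scaled within each sample, and the brain and peripheral tables were made from different library kits and deposited apart, so no test was made across them. In such bulk samples, fewer cells of a type and less RNA per cell cannot be told apart.

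Mbnl3 was near the floor of detection outside testis. It had 0.677 ± 0.0999 TPM (SD, n = 6) in testis, with 45 to 67 counts per sample, and means of 0.153 to 0.19 TPM in cortex, cerebellum, hippocampus and liver, with 2 to 38 counts per sample. It was not listed in the muscle and first N2a gene tables. The lowest testis sample, at 0.55 TPM, lay above the highest sample of any other tissue, at 0.35 TPM in hippocampus KO. At 2 to 38 counts, differences of Mbnl3 between groups in brain and liver were poorly resolved.

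**Figure D1:**
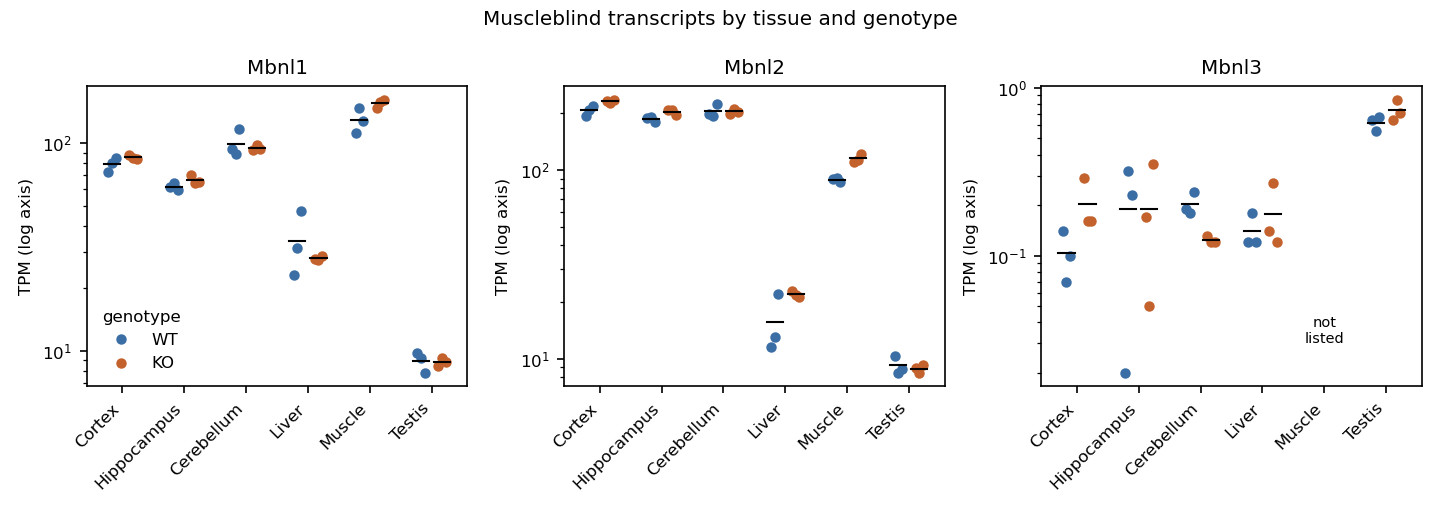
TPM of Mbnl1, Mbnl2 and Mbnl3 (log axis) in each sample of 6 tissues, with WT in blue, KO in orange and black lines at the mean of each genotype. Mbnl1 was highest in muscle (112.16 to 162.26 TPM), Mbnl2 in the 3 brain regions, and Mbnl3 reached 0.55 to 0.85 TPM in testis and was not listed in muscle.

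Within the brain, Mbnl1 differed between regions more than Mbnl2 did. In CPM (counts scaled to the library total), Mbnl1 in WT was 145.3, 159.1 and 162 in cortex, 122.1, 123.9 and 116.9 in hippocampus, and 174.2, 163.8 and 206 in cerebellum. All 3 hippocampal samples lay under, and all 3 cerebellar samples above, the 3 cortical ones. Hippocampus was lower than cortex by 0.36 ± 0.07 (log2, SE; edgeR adjusted p = 0.000297). Cerebellum was higher than cortex by 0.22 ± 0.07 (adjusted p = 0.00709) and higher than hippocampus by 0.59 ± 0.07 (adjusted p = 5.02e-07). Without cerebellum WT 3, the sample at 206 CPM, the step from cortex to cerebellum was 0.12 (adjusted p = 0.0608).

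Mbnl2 in WT was 334.7, 356 and 369.9 CPM in cortex, 323.3, 321.2 and 308.8 in hippocampus, and 313.9, 307.9 and 345.5 in cerebellum. Hippocampal samples lay under all cortical ones, and 1 cerebellar sample lay among the cortical ones. Mbnl2 was lower than in cortex by 0.15 ± 0.05 in hippocampus (adjusted p = 0.0212) and by 0.13 ± 0.05 in cerebellum (adjusted p = 0.0309), and the latter 2 regions differed by 0.02 ± 0.05 (adjusted p = 0.719). Both Mbnl2 calls rested on single libraries: without cortex WT 3 they were -0.12 (adjusted p = 0.0934) and -0.10 (adjusted p = 0.128), and they also missed the threshold without cortex WT 2, without hippocampus WT 3 for the former, and without cerebellum WT 1 or 2 for the latter. Mbnl3 passed in no pair of regions. Differences of this kind were common among all genes, since 47.5% of 15504 genes were called between hippocampus and cortex, 70% between cerebellum and cortex and 70% between cerebellum and hippocampus. Choroid plexus markers (Ttr, Kl and Folr1) summed to 27.6 to 164 TPM in cortex WT, 32.1 to 10500 in hippocampus WT and 2380 to 3540 in cerebellum WT, astrocyte markers to 597 to 707, 995 to 1060 and 1650 to 1750, and microglia markers to 121 to 146, 109 to 116 and 32.9 to 34.3; their part in the regional differences was not tested.

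The ratio of Mbnl2 to Mbnl1 TPM within a sample separated the regions completely. Over 6 samples each it was 2.95 to 3.23 in hippocampus, 2.59 to 2.82 in cortex and 1.91 to 2.19 in cerebellum. Each of the 3 pairs gave p = 0.00216 in a two-sided exact permutation test of log2 ratios, the smallest value that 6 against 6 samples allow, and 0.00216 after Benjamini-Hochberg adjustment over the 3 pairs. The ratio was 0.909 to 1.13 in testis, 0.611 to 0.795 in muscle and 0.417 to 0.824 in liver. Mbnl2 thus exceeded Mbnl1 in every brain sample and was lower than Mbnl1 in every muscle and liver sample. These ratio tests were chosen after the levels had been seen.

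Loss of Fmr1 did not move the level of a muscleblind transcript past the test in any tissue. Of 17 tests of Mbnl1, Mbnl2 and Mbnl3 in 6 tissues, edgeR called 0, with 5 at an unadjusted p under 0.05, and DESeq2 called 0. Of all genes tested, edgeR called 0.0203% in cortex, 0.209% in hippocampus, 0.226% in cerebellum, 0.411% in liver, 4.04% in muscle and 4.27% in testis. The cortex share depended on the fit: edgeR called 3 genes, DESeq2 904, 1 fit of all 18 brain samples 1277, and edgeR without cortex WT 3 called 1102. Leaving out 1 library also moved the other counts. It gave 1 to 21 genes in hippocampus (31 with all), 6 to 256 in cerebellum (33) and 13 to 284 in liver (49). Muscle had 18 to 559 (512 with all) and testis 173 to 1256 (661). In cortex Mbnl2 was 334.7, 356 and 369.9 CPM in WT and 395, 377 and 401.1 in KO, with every KO sample above every WT sample. The difference was 0.15 ± 0.06 (log2, SE; edgeR adjusted p = 0.193). Blood markers summed to 437 to 554 TPM in cortex WT and 388 to 398 in cortex KO, and their part in the cortical values was not tested. In hippocampus Mbnl2 was 323.3, 321.2 and 308.8 CPM in WT and 359.6, 360.5 and 332.5 in KO, again without overlap, and differed by 0.14 ± 0.05 (adjusted p = 0.279). In muscle it was 275.8, 267 and 256.8 CPM in WT and 287.3, 300.6 and 296.8 in KO, without overlap, and differed by 0.15 ± 0.09 (adjusted p = 0.334). In cerebellum and testis the Mbnl2 genotypes overlapped, with differences of 0.02 ± 0.05 (adjusted p = 0.953) and -0.05 ± 0.10 (adjusted p = 0.848). Endothelial markers summed to 75.8 to 89.4 TPM in cerebellum WT and 92.8 to 101 in KO, and microglia markers to 32.9 to 34.3 and 35.9 to 36.7. In testis, Leydig and Sertoli cell markers summed to 3230 to 4160 TPM in WT and 2840 to 3190 in KO, and germ cell markers to 42100 to 44900 and 39800 to 40900. The part of these cells in the values was not tested.

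Mbnl1 genotypes separated in hippocampus alone, at 122.1, 123.9 and 116.9 CPM in WT and 138.5, 129.2 and 127.3 in KO. That difference was 0.12 ± 0.05 (edgeR adjusted p = 0.36). The Mbnl1 genotypes overlapped in cortex (0.07 ± 0.06, adjusted p = 0.525), cerebellum (-0.04 ± 0.07, adjusted p = 0.921), muscle (0.07 ± 0.11, adjusted p = 0.728) and testis (-0.02 ± 0.10, adjusted p = 0.937). In hippocampus, where both genes separated, oligodendrocyte markers summed to 5310 to 5580 TPM in WT and 4310 to 4500 in KO, fibroblast markers to 85.8 to 105 and 110 to 116, and leukocyte markers to 18 to 19.1 and 16.3 to 17; their part in the hippocampal values was not tested. Mbnl3 lay higher in KO than in WT in cortex (6 to 12 against 17 to 30 counts) and lower in cerebellum (17 to 31 against 12 in each KO sample). Neither passed, at 0.99 ± 0.42 (adjusted p = 0.219) and -0.72 ± 0.29 (adjusted p = 0.49). The difference between these opposite effects was itself tested and missed the threshold (-1.71 ± 0.89, adjusted p = 0.375). Of 9 such tests of a genotype effect between brain regions, 0 members were called by edgeR, with 0 at an unadjusted p under 0.05, against 0% of all genes for hippocampus minus cortex, 0% for cerebellum minus cortex and 0.00645% for cerebellum minus hippocampus. In muscle, fibroblast markers summed to 590 to 1110 TPM in WT and 1300 to 1730 in KO, adipocyte markers to 676 to 1010 and 1090 to 1300, leukocyte markers to 5.55 to 6.92 and 10.5 to 12.6, and microglia markers to 2.65 to 4.02 and 6.35 to 8.12; their part in the muscle values was not tested.

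**Figure D2:**
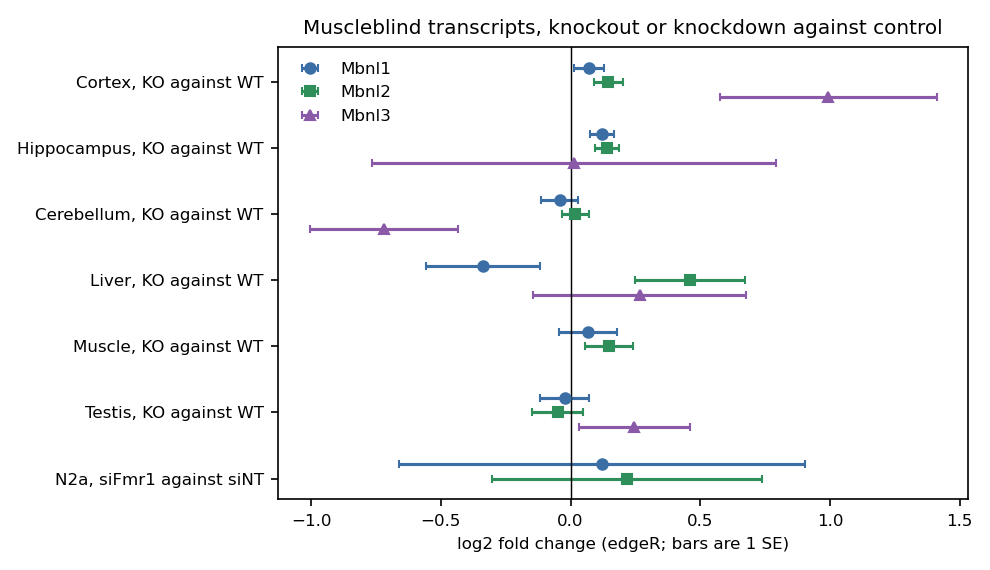
Log2 fold change (horizontal axis, bars are 1 SE, edgeR) of Mbnl1, Mbnl2 and Mbnl3 in Fmr1 KO against WT in 6 tissues and in siFmr1 against siNT N2a cells. Brain, muscle and testis points of Mbnl1 and Mbnl2 lie between -0.05 and 0.15, and the bars are widest for Mbnl3 and for N2a cells.

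In liver, neither gene passed the test, and the estimates for Mbnl1 and Mbnl2 had opposite signs. Mbnl1 was 74.9, 92.13 and 145.7 CPM in WT and 81.9, 78.88 and 85.51 in KO, and Mbnl2 was 35.61, 36.06 and 62.88 in WT and 63.83, 59.93 and 60.63 in KO. WT spanned a wide range with liver WT 3 high for both genes, and KO samples were close together. The differences were -0.34 ± 0.22 for Mbnl1 (edgeR adjusted p = 0.611) and 0.46 ± 0.21 for Mbnl2 (adjusted p = 0.453). Leaving out 1 library moved them from -0.527 to -0.025 for Mbnl1 and from 0.32 to 0.778 for Mbnl2, with -0.025 and 0.778 both reached without liver WT 3. Within a sample, however, the Mbnl2 to Mbnl1 TPM ratio was 0.417 to 0.493 in WT and 0.739 to 0.824 in KO, with no overlap. The log2 difference in ratio was 0.77, with p = 0.1 in a two-sided exact permutation test, the smallest that 3 against 3 allow, and 0.6 after adjustment over 6 tissues. In the other tissues the log2 difference in ratio was -0.04 to 0.1 (exact permutation p from 0.2 to 0.9). Fibroblast markers (Col1a1, Col3a1 and Dcn) summed to 103 to 110 TPM in liver WT and 145 to 156 in liver KO. The 1 adipocyte marker listed for liver was at 18.8 to 22.4 TPM in WT and 22.8 to 31.6 in KO. The part of these cells in the ratio was not tested.

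The first N2a experiment did not resolve the muscleblind genes. Mbnl1 was 237.9 and 46.65 CPM in siNT and 229.2, 175.2 and 59.87 in siFmr1, and Mbnl2 was 102.3 and 35.17 against 104.3, 81.31 and 54.21. The siNT libraries differed from each other more than the groups did. Across 12112 genes, siNT 1 correlated with siFmr1 1 at 0.987 and siNT 2 with siFmr1 3 at 0.983, while the 2 siNT libraries correlated with each other at 0.898. The differences were 0.12 ± 0.78 for Mbnl1 and 0.22 ± 0.52 for Mbnl2 (edgeR adjusted p = 0.9999 for both), and without siNT 2 they were -0.62 and -0.36. The 2 members gave 0 calls with edgeR, 0 at an unadjusted p under 0.05 and 0 with DESeq2, and 0% of all 12187 genes were called.

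In the co-transfection experiment, siMbnl1 lowered Mbnl1 and siFmr1 lowered Mbnl2. Mbnl1 was 4410.4, 5016.8 and 3759.4 normalized counts with siNT and pcDNA and 1408.4, 1538.4 and 1509.1 with siMbnl1 and pcDNA. All siMbnl1 values were well below all siNT values. The difference was -1.56 ± 0.11 (log2 of value + 1, SE; limma adjusted p = 1.87e-07), in a comparison in which 32.8% of all 16243 genes were called. With siFmr1 and pcDNA, Mbnl1 was 4562.9, 4444.8 and 4693.7, inside the siNT range, and differed by 0.07 ± 0.11 (adjusted p = 0.692). Mbnl2 was 4150.6, 3982.1 and 4119.3 with siNT and 3337.7, 3313.7 and 3505.2 with siFmr1, without overlap, and was lower by 0.27 ± 0.06 (adjusted p = 0.00131), where 37% of all genes were called. With siMbnl1, Mbnl2 was 3797.7, 3883.5 and 3706.1, between the other 2 groups, and differed from siNT by -0.11 ± 0.06 (adjusted p = 0.165). Both comparisons share the siNT samples. Set against each other, siFmr1 had higher Mbnl1 than siMbnl1 by 1.62 ± 0.11 (adjusted p = 7.93e-08) and Mbnl2 differed by -0.165 ± 0.056 (adjusted p = 0.0301), with 35.3% of all genes called. The Mbnl2 part of that contrast missed the threshold without siFmr1 1 or 2 or without siMbnl1 1 or 2 (adjusted p up to 0.106). In KO tissues Mbnl2 was called in no tissue, with estimates above 0 except in testis (-0.05), and the N2a cells and the tissues were not tested against each other.

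The MBNL1 plasmids raised the reads assigned to Mbnl1. With siFmr1 and nMBNL1, Mbnl1 reached 11032, 12133 and 13253 normalized counts, 1.41 ± 0.11 above siFmr1 with pcDNA (limma adjusted p = 8.67e-06; 1.76% of all genes called). With siMbnl1 and cMBNL1 it reached 19178, 23339 and 16769, 3.72 ± 0.11 above siMbnl1 with pcDNA (adjusted p = 5.06e-12; 2.24% of all genes called). With 1 library left out, the genes called ranged from 28 to 1542 for nMBNL1 (286 with all) and from 37 to 1988 for cMBNL1 (364). The gene table does not separate plasmid transcripts from those of the chromosomal gene. Mbnl2 was 2988.2, 2885.1 and 3039.1 with nMBNL1, below all siFmr1 pcDNA samples, and differed by -0.19 ± 0.06 (adjusted p = 0.0924, and 0.01875 where only these 2 groups were fitted). With cMBNL1 it was 3420, 3431.9 and 3673.7, and differed from siMbnl1 with pcDNA by -0.11 ± 0.06 (adjusted p = 0.276). Mbnl3 was 0 to 4.11 normalized counts in the 15 samples and was called in no contrast.

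**Figure D3:**
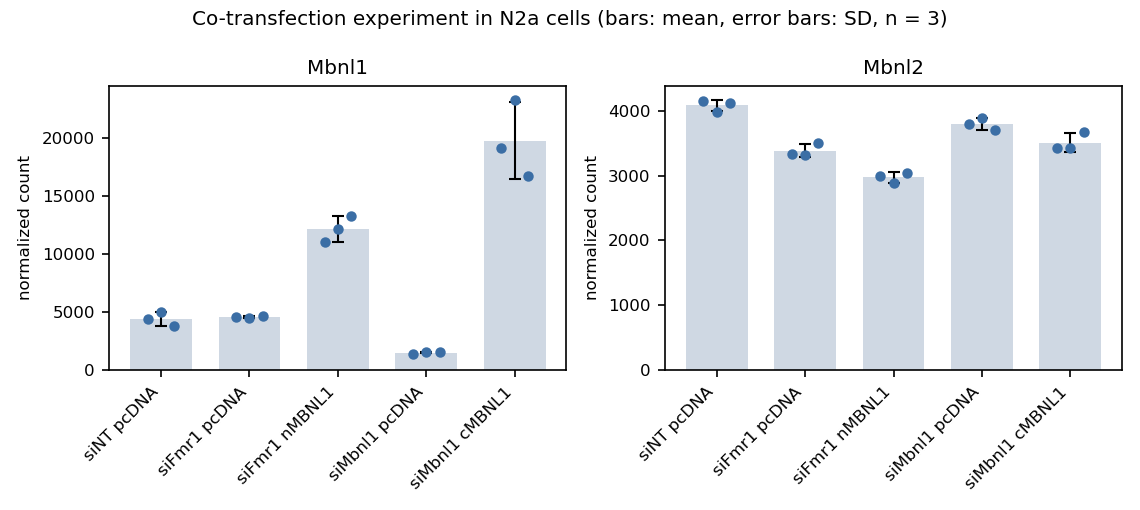
Normalized counts of Mbnl1 and Mbnl2 in the 5 co-transfection groups of N2a cells, with bars at the mean, error bars of 1 SD and points for the 3 samples. Mbnl1 fell to 1408.4 to 1538.4 with siMbnl1 and pcDNA and rose with both MBNL1 plasmids, and Mbnl2 was lowest with siFmr1 and nMBNL1 (2885.1 to 3039.1).

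Exon inclusion was read from junction reads, as the share of transcripts that include an exon after correction for the lengths of both forms. Of the 54 events, 9 were listed in all 11 tables and 21 in 1 table, and 50 reached the minimum of 20 junction reads per replicate in at least 1 table. The tissue tables do not say which of their 2 sets is KO, so genotypes are given as set 1 and set 2 without direction, and tissue levels are over all 6 replicates. Muscle had the lowest inclusion of the 54-nucleotide exons of both genes. The Mbnl1 exon had an inclusion of 0.061 ± 0.014 in muscle (SD, n = 6; range 0.044 to 0.078), 0.265 ± 0.089 in liver (0.171 to 0.425) and 0.306 ± 0.159 in testis (0.197 to 0.615). Its mean was 0.387 to 0.425 in the brain regions. The Mbnl2 exon had 0.067 ± 0.016 in muscle (0.04 to 0.087), 0.432 ± 0.135 in liver and 0.528 ± 0.155 in testis. Muscle lay below every liver and testis sample for both exons, each with p = 0.00216 in a two-sided exact permutation test (0.00731 after adjustment over 27 tests of tissue pairs).

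The 54-nucleotide exon of Mbnl2 was included less in cerebellum than in the other brain regions. Its inclusion was 0.352 ± 0.089 in cerebellum (0.27 to 0.484), 0.536 ± 0.067 in cortex (0.463 to 0.649) and 0.518 ± 0.075 in hippocampus (0.429 to 0.642). Cerebellum was lower than both, with overlap at the edges of the ranges (exact permutation p = 0.00649, adjusted 0.0159, for each). The Mbnl1 54-nucleotide exon gave differences of at most 0.038 between brain regions (exact permutation adjusted p from 0.785 to 0.952), at 15 to 48 junction reads per brain sample against 238 to 369 in muscle. The Mbnl2 95-nucleotide exon did not pass between cerebellum and cortex (exact permutation adjusted p = 0.678) or hippocampus (0.785). Whether the regional pattern differed between the 2 genes was not tested.

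The 95-nucleotide exons separated muscle and liver in opposite orders. The Mbnl1 exon had an inclusion of 0.337 ± 0.054 in liver (0.277 to 0.42), 0.774 ± 0.069 in muscle (0.684 to 0.883) and 0.94 ± 0.059 in testis (0.853 to 1), counted among transcripts that skip the 36-nucleotide exon. Liver lay below every muscle and testis sample (exact permutation p = 0.00216, adjusted 0.00731), and muscle was below testis with a small overlap (p = 0.00433, adjusted 0.013). The Mbnl2 exon instead was lowest in muscle, at 0.201 ± 0.051 (0.142 to 0.287), against 0.598 ± 0.089 in liver (0.468 to 0.692) and 0.654 ± 0.098 in testis (0.551 to 0.815). Muscle lay below every liver and testis sample for it (exact permutation p = 0.00216, adjusted 0.00731), and liver and testis were not told apart (p = 0.333, adjusted 0.562). In the brain regions both 95-nucleotide exons were mostly included, with means of 0.881 to 0.936 for Mbnl1 and 0.908 to 0.946 for Mbnl2.

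In transcripts that include the 95-nucleotide exon, the 36-nucleotide exon of Mbnl1 was mostly included in brain. Its mean was 0.982 ± 0.043 in hippocampus, 0.927 ± 0.113 in cortex and 0.878 ± 0.064 in cerebellum. Transcripts that skip the 95-nucleotide exon were scored apart and are not part of the means in this paragraph. Hippocampus was higher than cerebellum (exact permutation p = 0.0173, adjusted 0.039). The genotype sets of cerebellum had means of 0.925 and 0.832 without overlap, and this test pooled them. In muscle the exon had 0.152 ± 0.034 (0.124 to 0.209), with 161 to 252 junction reads. Testis had 0.738 ± 0.237 and liver 0.212 ± 0.16, each with 35 junction reads or fewer per sample, and these 2 means are below the read minimum and were not tested. Muscle transcripts of Mbnl1 thus tended to lack both the 54- and the 36-nucleotide exon and to include the 95-nucleotide one. Skip-form lengths differ between the brain tables (34) and the others (149), and library kits differ as well, so brain and peripheral values stand side by side without a test.

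**Figure D4:**
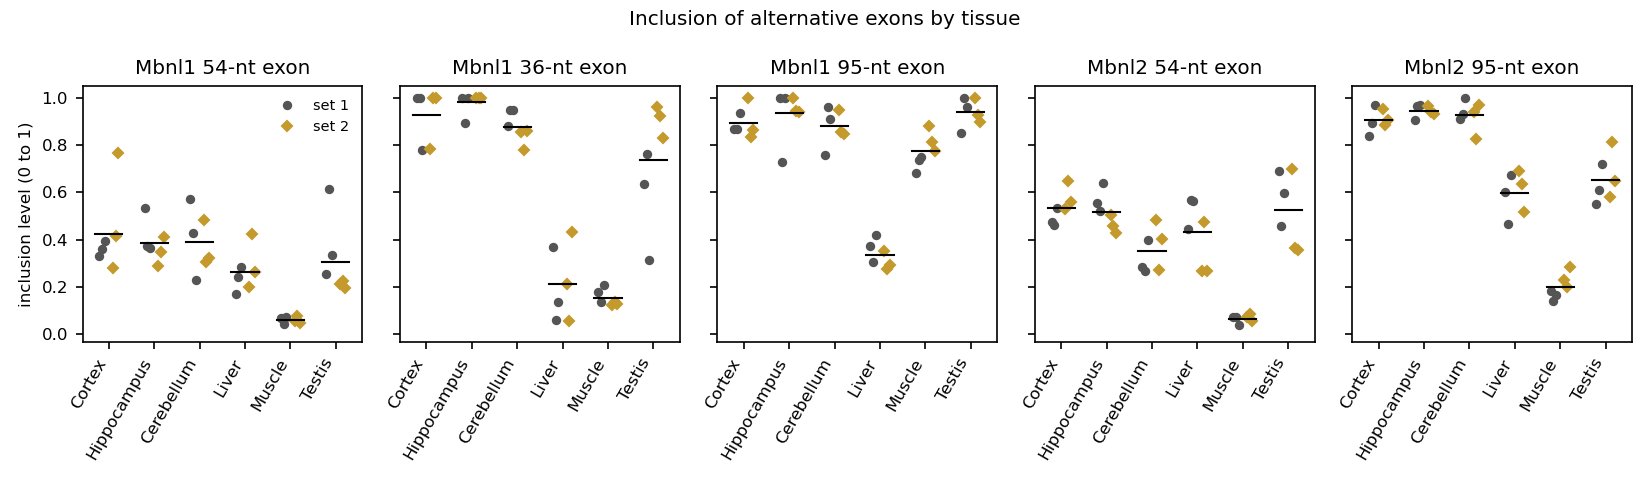
Inclusion level (0 to 1) of 5 exons of Mbnl1 and Mbnl2 in each replicate of 6 tissues, with grey circles for set 1, yellow diamonds for set 2 and a line at the mean of all 6. Muscle is lowest for the 54-nucleotide exons of both genes (0.061 and 0.067) and for the Mbnl2 95-nucleotide exon, and liver is lowest for the Mbnl1 95-nucleotide exon.

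Between the genotype sets of a tissue, no muscleblind event passed the quasi-binomial test, which needed an adjusted p under 0.05 and an inclusion difference of at least 0.1. Of 70 tests in 6 tissues, 0 were called, 4 had an unadjusted p under 0.05, and 3 had a false discovery rate under 0.05 in the authors' deposited table. In testis 1 further Mbnl1 event with such a deposited rate was under the read minimum and was not tested. Calls were rare among all events of these tables as well, at 0% of skipped exons and 0% of mutually exclusive exons in cortex, hippocampus, cerebellum and liver, 0.0727% and 0.243% in muscle, and 0.00582% and 4.42% in testis. The last share, 141 events, ranged from 0 to 310 events when 1 testis replicate was left out. All 4 unadjusted values under 0.05 were in muscle. The Mbnl1 95-nucleotide exon was 0.684, 0.737 and 0.751 in one muscle set and 0.883, 0.814 and 0.777 in the other, a difference of 0.1 without overlap (adjusted p = 0.668). The Mbnl2 95-nucleotide exon was 0.182, 0.142 and 0.166 against 0.228, 0.201 and 0.287, a difference of 0.075 without overlap (adjusted p = 0.668). In both cases set 1 was the lower. In the authors' deposited table the rate was 0.0149 for the former and 0.0969 for the latter. The other muscle events with a deposited rate under 0.05 were the Mbnl1 54-nucleotide exon before a following exon shortened to 49 nucleotides (0.269, 0.269 and 0.366 against 0.092, 0.156 and 0.133) and the choice of the 36- over the 95-nucleotide exon (0.112, 0.112 and 0.108 against 0.038, 0.081 and 0.06). Median absolute differences of the skipped exon events tested were 0.0091 for 20 muscleblind events and 0.0099 for all events in muscle, and 0.0499 for 6 muscleblind events and 0.0063 for all in testis. In the table of the first N2a experiment, 0 of 16 muscleblind events were called, with 0 at an unadjusted p under 0.05 and 0 by the deposited rate, where 0% of skipped and 0.0245% of mutually exclusive exons were called. The Mbnl1 54-nucleotide exon was at 0.117, 0.387 and 0.408 in the set of 3 replicates and 0.326 and 0.766 in the set of 2, with overlap (-0.242, adjusted p = 0.807). By their sizes these sets are siFmr1 (3 samples) and siNT (2 samples).

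In the co-transfection splicing data, 1 table compares siNT pcDNA with siFmr1 pcDNA in an order it does not name, here set A and set B; each further table compares 1 group with set A or set B, which was recognised because its reads were equal for 100% of shared events. The 54-nucleotide exon of Mbnl1 separated these control and Fmr1-depleted cells. Its inclusion was 0.275, 0.39 and 0.384 in set A and 0.643, 0.634 and 0.456 in set B, without overlap. The modelled difference was -0.23 (quasi-binomial adjusted p = 4.43e-05). It was the 1 called event among 20 skipped exon events of the family tested there, against 0.378% of all skipped exons, and 0 of 4 mutually exclusive events were called (1 at an unadjusted p under 0.05, 1 by the deposited rate), against 2.09% of all. That share, 212 events, ranged from 1 to 574 events when 1 replicate was left out. The Mbnl1 95-nucleotide exon was 0.827, 0.785 and 0.778 in set A and 0.921 to 0.96 in set B, a difference of -0.145 that missed the threshold (adjusted p = 0.0955). The Mbnl2 54-nucleotide exon was 0.236 to 0.399 and 0.393 to 0.414 (-0.08, adjusted p = 0.648). The order is not named and was not inferred from levels, so no statement is made on whether the form with the 54-nucleotide exon of Mbnl1 was the more common with siFmr1 or with siNT.

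With siMbnl1 and pcDNA the remaining Mbnl1 transcripts had an inclusion of the 54-nucleotide exon of 0.725, 0.684 and 0.8, above all 3 samples of set B, and the difference of 0.16 missed the threshold (adjusted p = 0.611). The event had 87 to 142 junction reads per siMbnl1 sample against 259 to 440 in set B. Mbnl2 inclusion was 0.479, 0.441 and 0.523 for the 54-nucleotide exon and 0.934, 0.928 and 0.876 for the 95-nucleotide exon, against 0.393 to 0.414 and 0.814 to 0.885 in set B. Both were higher with siMbnl1 in mean, by 0.08 and 0.07, and neither passed (adjusted p = 0.776 and 0.611). Of 19 skipped exon events of the family, 0 were called by the quasi-binomial test, with 3 at an unadjusted p under 0.05 and 3 by the deposited rate. Of 3 mutually exclusive events 0 were called, with 0 at an unadjusted p under 0.05 and 1 by the deposited rate. Over all events the shares called were 0.336% and 2.7%. The latter, 307 events, ranged from 28 to 602 events when 1 replicate was left out, and a replicate block called 55.

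The MBNL1 plasmid groups had opposite inclusion of the 54- and 36-nucleotide exons of Mbnl1. With nMBNL1 the 54-nucleotide exon was included at 0.982, 0.983 and 0.989, against 0.275 to 0.39 in set A (difference 0.635, quasi-binomial adjusted p = 2.11e-255). Before an included 95-nucleotide exon, the 36-nucleotide exon was at 0.021, 0.019 and 0.018, against 0.937 to 0.971 (difference -0.93, an adjusted p too small to be represented). In transcripts that skip the 95-nucleotide exon it was at 0.446, 0.729 and 0.531, against 0.628 to 0.732 in set A. That event had 65 to 100 junction reads with nMBNL1 and was not called. The 95-nucleotide exon was at 0.997 to 0.998 against 0.778 to 0.827. With cMBNL1 the 54-nucleotide exon was at 0.003, 0.003 and 0.005, against 0.456 to 0.643 in set B (difference -0.57, adjusted p = 1.75e-29). The 36-nucleotide exon, again before an included 95-nucleotide exon, rounded to 1 in all 3 samples (0, 4 and 1 skipping reads), against 0.885 to 0.985. The 95-nucleotide exon was at 0.995 to 0.998 against 0.921 to 0.96, higher as with nMBNL1. Its difference of 0.054 was under the required 0.1. Junction reads of the 54-nucleotide event rose from 7.52 to 8.18 RPM (reads scaled to the total of all junction reads of a replicate's skipped exon table) in set A to 341 to 411 with nMBNL1, and from 6.84 to 11.8 in set B to 187 to 264 with cMBNL1. Whether a read came from a plasmid or a chromosomal transcript cannot be told apart in these counts. Junctions of the 201-nucleotide exon of Mbnl1 (chr3:60603694-60603894) did not rise in this way: they were at 11.5 to 13.1 RPM with nMBNL1 and 12.9 to 14.1 in set A, and at 1.69 to 2.06 with cMBNL1, 1.43 to 3.98 with siMbnl1 and pcDNA, and 10 to 17.9 in set B. The totals behind RPM depend on the events of a table. The first set A sample had 35906127 beside set B, used here, and 39786019 beside nMBNL1. Small differences in RPM between sets are therefore not read.

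With nMBNL1, 5 of 21 skipped exon events and 1 of 4 mutually exclusive events of the family were called, against 0.255% and 0.0948% of all events. All but 1 lay in Mbnl1, where plasmid and chromosomal reads cannot be told apart, so these shares cannot be read as a response of the family. The median absolute difference of skipped exons was 0.0244 for the family and 0.0058 for all events. Between sets A and B, without an MBNL1 plasmid, it was 0.022 and 0.0061. A single called event lay in Mbnl2. Its 54-nucleotide exon was at 0.194, 0.173 and 0.173 with nMBNL1 and 0.341, 0.399 and 0.236 in set A, without overlap (difference -0.15, adjusted p = 0.00224). Without the second set A sample the difference was -0.11 (adjusted p = 0.176), so the call rested on that library. The Mbnl2 95-nucleotide exon was at 0.713, 0.669 and 0.672 against 0.77 to 0.801, without overlap, and missed the threshold (-0.10, adjusted p = 0.174). The other called events were the 95-nucleotide exon of Mbnl1, its 1049-nucleotide exon at chr3:60528756-60529804, which is partly coding (0.962 to 0.971 against 0.799 to 0.855), and the choice between the 36- and the 95-nucleotide exon (0.003 to 0.004 against 0.317 to 0.363 for the former).

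With cMBNL1, 3 of 24 skipped exon events and 1 of 5 mutually exclusive events were called, against 0.44% and 6% of all events. All lay in Mbnl1, where plasmid and chromosomal reads cannot be told apart. Beside the 54-nucleotide exon they were that exon before a shortened following exon (0.164 to 0.286 against 0.595 to 0.946), the 36-nucleotide exon in transcripts that skip the 95-nucleotide exon (0.997 to 0.999 against 0.798 to 0.935), and the choice of the 36- over the 95-nucleotide exon (0.589 to 0.601 against 0.252 to 0.372). The second of these fell under the required difference, to 0.08, without the first set B sample. Mbnl2 inclusion with cMBNL1 was 0.34, 0.291 and 0.377 for the 54-nucleotide exon and 0.764, 0.708 and 0.785 for the 95-nucleotide exon, below all set B samples in both. These differences of -0.07 and -0.09 missed the threshold (adjusted p = 0.676 and 0.302). The siMbnl1 groups with pcDNA and with cMBNL1 were each compared with set B, which they share, and not with each other. Over all events with cMBNL1, 857 mutually exclusive ones were called, and 117 to 1304 when 1 replicate was left out. A replicate block called 136 skipped exons there against 260.

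**Figure D5:**
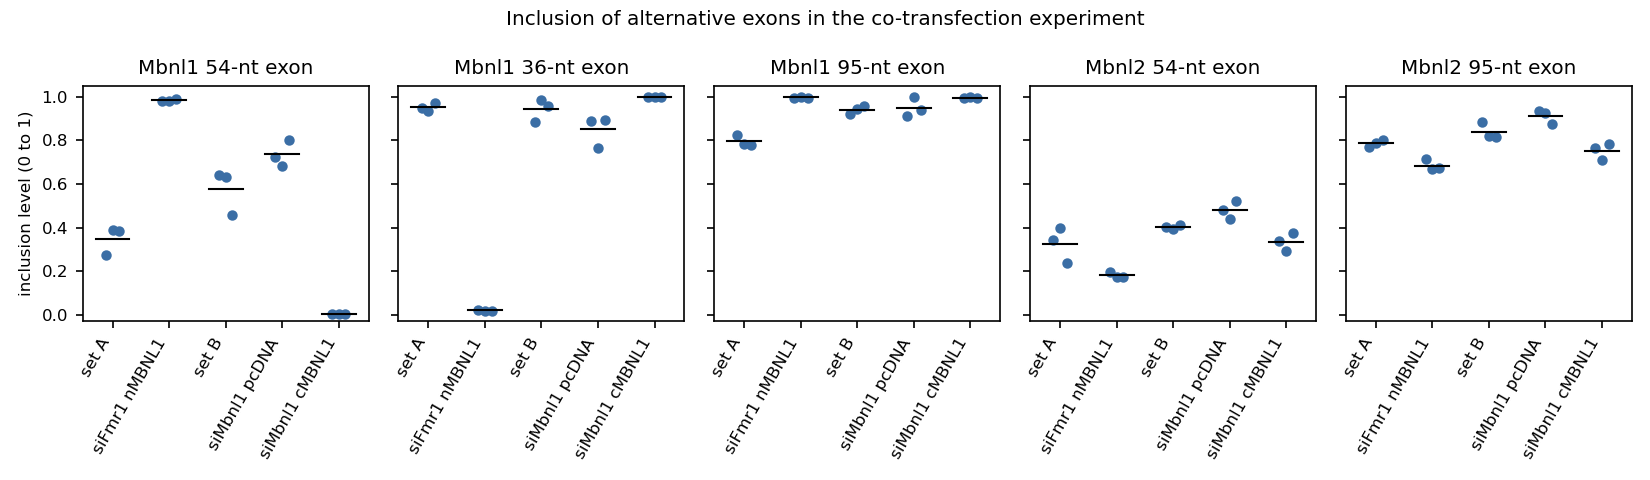
Inclusion level (0 to 1) of 5 exons in the 3 replicates of each co-transfection set, with lines at the mean; sets A and B are siNT pcDNA and siFmr1 pcDNA in an order the tables do not give. For the Mbnl1 54-nucleotide exon nMBNL1 lies at 0.982 to 0.989 and cMBNL1 at 0.003 to 0.005, and for the Mbnl2 54-nucleotide exon nMBNL1 lies lowest, at 0.173 to 0.194.

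A list of 30 other regulators of splicing and RNA processing that act beside muscleblind in development (CELF, RBFOX, PTBP, NOVA, ELAVL and others) was followed. In KO tissues 0 of 28 measured members were called in each brain region, 0 of 17 in liver and 0 of 18 in muscle by edgeR, and in testis, where 4.27% of all genes were called, 2 of 26 were lower: Elavl3 (-0.85 ± 0.22, edgeR adjusted p = 0.0187) and Nova2 (-0.42 ± 0.13, adjusted p = 0.0473), both neuronal RNA-binding proteins. In the co-transfection experiment siFmr1 was followed by 7 higher and 5 lower of 29, where 37% of all genes were called, with a list median of 0.08 on the log2 scale against 0.03 for all genes. Among them Hnrnpa1 was lower (-0.74 ± 0.07, limma adjusted p = 1.18e-06) and Elavl4 higher (0.61 ± 0.08, adjusted p = 1.87e-05). With siMbnl1, 1 was higher and 9 were lower of 29, where 32.8% of all genes were called (list median -0.05, all genes 0.01), led by Nova1 (-0.45 ± 0.09, adjusted p = 0.00175) and Celf5 (-0.65 ± 0.15, adjusted p = 0.00291). Neither plasmid was followed by a called member of the list. Between WT brain regions, 5 were higher and 8 lower of 28 in hippocampus against cortex, 10 and 14 in cerebellum against cortex, and 14 and 11 in cerebellum against hippocampus, where 47.5%, 70% and 70% of all genes were called. Celf5 differed by -2.77 ± 0.06 between cerebellum and cortex (edgeR adjusted p = 6.88e-17), where Mbnl1 differed by 0.22 and Mbnl2 by -0.13.

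Across the 36 tissue samples, the genes whose log2 CPM ran most like Mbnl1 were Heatr3 (Pearson r = 0.987), Ubxn2a (0.981) and Idh3g (0.978), among 10069 genes. Those most like Mbnl2 were 5730455P16Rik (0.994), Trak2 (0.989) and Tnks2 (0.988). Mbnl1 and Mbnl2 correlated with each other at 0.822, so that Mbnl2 ranked 633 among the genes most like Mbnl1, and Mbnl1 ranked 1232 for Mbnl2. These values describe samples that fall into 6 tissues and share library kits within brain and within the periphery, and they carry no test.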

How the data were processed

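Count and TPM values per gene were deposited by the authors, together with log2 fold changes and adjusted p-values that were not used for tests. The co-transfection signal was deposited as normalized counts. Junction counts per replicate were deposited as rMATS output, whose version is not given in the sources used here. Per the submitters' processing notes, tools included Trimmomatic 0.39, Bowtie2 2.3.5, STAR 2.6.1, RSEM 1.3.1 and DESeq2 1.16.1 on GRCm38. Columns of 2 libraries of the muscle table matched no sample and were not used.

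Counts were tested in R 4.3.3 with edgeR 4.0.16 (filterByExpr, TMM, quasi-likelihood F test), and normalized counts with limma 3.58.1 on log2(value + 1), leaving out genes whose mean was under 1. DESeq2 1.42.0 was an alternative. Junction counts were tested with a quasi-binomial model per event, for a mean of at least 20 reads in both sets. Its dispersion prior came from events with an inclusion of 0.05 to 0.95, chosen after a prior from all events gave unstable fits. Adjustment (Benjamini-Hochberg) was over all genes or events, with calls under 0.05. Both tests were tested on simulated data. Tests of inclusion between tissues and of the Mbnl2 to Mbnl1 ratio, and their alternatives, were added after the values had been seen. Named were the members in every comparison, Fmr1 as a check, at most 4 called regulators per comparison, and the 3 genes most like a member (mean CPM of at least 5). The members and lists were chosen with earlier results of these data known.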

Additional observations from a re-analysis of the deposited data

How the results depend on the processing

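Leaving out 1 library at a time (which for siNT of the first N2a experiment leaves 1 sample, assumed to vary like siFmr1) gave these ranges of the log2 difference where a direction or call moved: Mbnl3 in hippocampus KO -0.811 to 0.494, Mbnl1 and Mbnl2 in cerebellum KO -0.11 to 0.057 and -0.013 to 0.067, Mbnl3 in liver KO -0.163 to 0.468, Mbnl1 and Mbnl2 in testis KO -0.095 to 0.028 and -0.107 to 0.025, and in the first N2a experiment -0.621 to 1.731 and -0.356 to 1.184. Between WT regions they were -0.193 to -0.121 (Mbnl2) and 0.446 to 1.408 (Mbnl3) for hippocampus against cortex, 0.12 to 0.294 (Mbnl1) and -0.186 to -0.097 (Mbnl2) for cerebellum against cortex, and -0.031 to 0.054 (Mbnl2) and -0.521 to 0.439 (Mbnl3) for cerebellum against hippocampus. In the co-transfection experiment they were -0.043 to 0.165 (Mbnl1, siFmr1 against siNT), -0.205 to -0.163 (Mbnl2, nMBNL1) and -0.19 to -0.149 (Mbnl2, siFmr1 against siMbnl1). Members called then ranged from 1 to 3 (hippocampus against cortex) and from 1 to 2 (cerebellum against cortex, nMBNL1, siFmr1 against siMbnl1). With the 9 WT samples alone Mbnl2 in cerebellum against cortex was -0.134 and 1 member was called in place of 2. Mbnl2 in cerebellum against hippocampus was -0.004 with RLE factors and with DESeq2. With only the groups compared, Mbnl2 with nMBNL1 was called at -0.188, which gave 2 members in place of 1, and with no filter on low values 2 members were called with siMbnl1, the second being Mbnl3. Causes were not tested.

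Replicate numbers were not treated as pairs, since in no comparison did every same-numbered pair correlate over 0.1. This rule cannot show that regions came from separate mice. Same-numbered pairs of cerebellum and hippocampus correlated at 0.055 to 0.203 in WT and 0.092 to 0.246 in KO. Those of hippocampus and cortex correlated at -0.054 to 0.161 and -0.249 to -0.01. The tests between regions treated all samples as separate. A replicate block changed no call of a member gene or event; Mbnl3 in cerebellum against hippocampus became 0.033. It moved the number of genes called from 31 to 1 in hippocampus KO, from 3 to 1 in cortex, from 49 to 24 in liver, from 512 to 31 in muscle, from 661 to 377 in testis and from 0 to 4 for cerebellum minus cortex. Of all genes, DESeq2 called 904 in cortex, 247 in hippocampus, 92 in cerebellum (edgeR 33), 277 in liver and 1093 in muscle; 1 fit of 18 brain samples called 1277 in cortex and 11 in cerebellum; and fits of only the groups compared called 3658, 2428, 2813 and 2854 against 6013, 5330, 286 and 364. Under the deposited false discovery rate, member events called were 1 in muscle, 3 in sets A and B and 1 with siMbnl1 among skipped exons, and 2 among mutually exclusive exons with cMBNL1. A dispersion prior from all events called 3 for sets A and B, and a minimum difference of 0.05 called 7 with cMBNL1. For all skipped exons the deposited rate called 792, 932, 553 and 1096 events in the co-transfection tables, the prior from all events 400, 276, 370 and 489, against 180, 173, 139 and 260. For mutually exclusive exons of sets A and B, a replicate block called 65 events against 212.

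Mbnl3 had 2 to 38 counts per sample in brain and liver, and the Mbnl1 54-nucleotide exon 15 to 48 junction reads per brain sample. A count model for the co-transfection gene table was not run, because whole reads could not be recovered from its values.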
